A study of Bos taurus with 8 samples.

Results

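Growth factor receptors are the proteins through which a cell reads ligands in its medium and from its neighbours. Transcript levels of 10 genes were examined here in bovine embryonic stem cells (bESCs): the receptor genes KDR, PDGFRA, KIT, IGF1R, EGFR, ERBB2, ERBB3, MET and EPHA2, and PDGFA, a ligand of PDGFRA. The rule that picks them is a list of names and no measured value, but the list was drawn up with earlier results of these data known, so their counts are descriptions beside those of all genes and not a comparison on a blind set. They are 10 of the 32637 genes with values, and all 10 passed the filter on low counts that left 15744 genes to test. RNA sequencing libraries came from 4 female (XX) bESC lines with the letters A, C, D and E, grown at 5% O2 on mouse embryonic fibroblasts (MEF, irradiated feeder cells) and, later, feeder-free on vitronectin (VTN), which gave 4 libraries per condition. Both conditions used NBFR medium, a serum-free base with FGF2 and the WNT pathway inhibitor IWR-1, and both were adapted from lines derived at atmospheric oxygen on MEF. The series record gives passage 15 to 17 on MEF and 20 to 22 in feeder-free culture. The study's methods add Activin A for feeder-free culture, whereas the sample titles carry the same medium name (NBFRA) in both conditions, so the sources differ on whether it was in the MEF medium too. Matrix, feeder cells, passage and any difference in Activin A therefore changed together and cannot be told apart. Each library of a condition is a separate line, so the spread between libraries is a spread between lines.

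The receptors described here belong to the receptor tyrosine kinases. As a general scheme, with exceptions among these members, such receptors span the membrane once, pair up when a ligand binds outside the cell and phosphorylate tyrosines inside it. These sites recruit adaptors that feed the RAS and MAPK, PI3K and PLCγ routes. KDR (VEGF receptor 2) is best known from endothelial cells and their mesodermal precursors, PDGFRA from mesenchyme and the primitive endoderm of the blastocyst, and KIT from germ cells, while IGF1R and the ERBB receptors carry survival and growth signals in many cell types, primed pluripotent cells among them.

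Library totals ran from 44268717 to 54296425 counts on MEF and from 49671478 to 102351560 in feeder-free culture, where line D had the largest total. Levels are given as CPM, counts scaled to a common library total, with library sizes adjusted by the trimmed mean of M-values (TMM), and differences as log2 fold changes of feeder-free over MEF from edgeR's quasi-likelihood test. A gene was called at an adjusted p under 0.05, over all 15744 genes tested, and a fold change of at least 1.5. Exon lengths were not used here, so levels are compared between libraries and not between genes. Because the same lines were grown in both conditions, a paired fit with line as a term was run beside the fit on condition alone, and its value is given where it changes a call. The 7 pluripotency markers with values summed to 3343 to 3805 CPM on MEF and 2920 to 3038 CPM in feeder-free culture, led by POU5F1 (1949 CPM on average). They were not all high: DPPA4 had 2 to 22 counts per library and ZFP42 was at 1.45 to 14.7 CPM. Every feeder-free sum lay below every MEF sum. With condition alone 0 of the 7 were called by edgeR, with 1 higher (ZFP42) and 4 lower at an unadjusted p under 0.05. The paired fit called ZFP42 higher (log2 fold change 1.35, adjusted p = 0.0412 by edgeR). In bulk RNA, fewer cells of a type and less RNA per cell cannot be told apart. The study also describes taking reads of a pure MEF sample out of the counts of bESCs on MEF, but the sources used here do not say whether the deposited counts are from before or after that step. Its part in the MEF values below was not tested.

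KDR, PDGFA, IGF1R, MET and EPHA2 were higher in feeder-free culture than on MEF in 4 of 4 lines, while the log2 fold changes of KIT, EGFR and ERBB2 lay between -0.14 and 0.00. With condition alone, 1 of the 10 genes was called higher (KDR) and 0 lower, beside 0.724 percent of all genes tested called higher and 1.00 percent called lower. At an unadjusted p under 0.05 there were 5 higher and 0 lower, beside 10.2 percent and 11.4 percent of all genes. In the paired fit 5 were called higher and 0 lower, beside 5.52 percent and 4.53 percent of all genes. DESeq2 called 4 higher and 0 lower, beside 4.41 percent and 3.28 percent of all genes. The median log2 fold change was 0.67 over the 10 genes, beside 0.01 over all genes tested. For 4 of them (KDR, PDGFA, IGF1R and MET) every feeder-free library lay above every MEF library, which held for 6.21 percent of all genes tested; 0 of the 10 showed the reverse, as 8.36 percent of all genes did. Of all genes, 20.2 percent were higher in 4 of 4 lines, against 5 of the 10, and 20.7 percent were lower in 4 of 4 lines, against 0 of the 10.

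**Figure D1:**
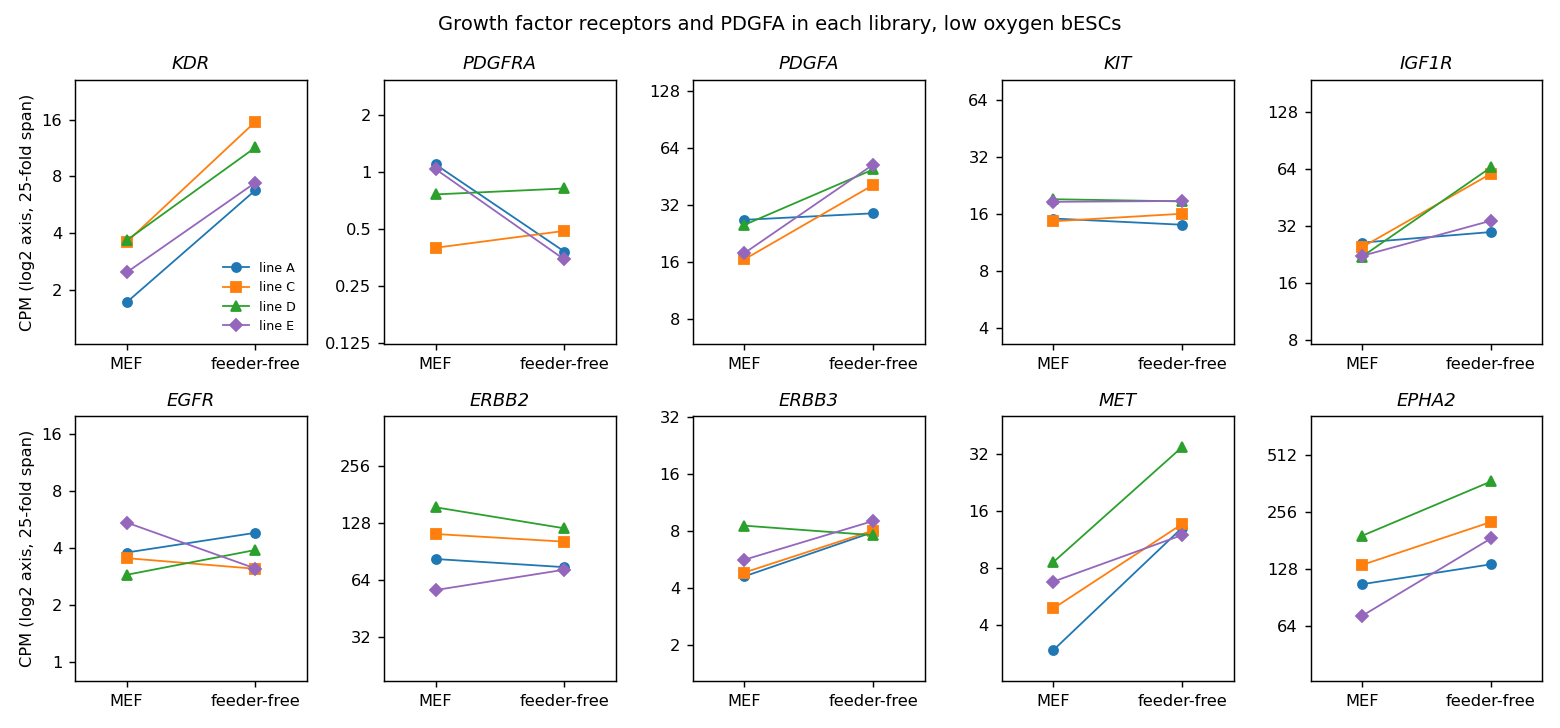
Level of each of the 10 genes in CPM (log axis) in the 4 MEF and 4 feeder-free libraries, with lines joining the libraries of 1 bESC line. KDR, PDGFA, IGF1R and MET separate by condition without overlap, EPHA2 is higher in every line while its conditions overlap, and the KIT points stay between 14.0 and 19.1 CPM.

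KDR binds VEGFA and is the main signalling receptor of that ligand. Its gene spans 70567551 to 70612407 of chromosome 6 (assembly ARS-UCD2.0). On MEF, KDR was at 1.73, 3.60, 3.68 and 2.49 CPM in lines A, C, D and E, and in feeder-free culture at 6.78, 15.6, 11.4 and 7.43 CPM. The lowest feeder-free library (line A) was above the highest MEF library (line D), and lines A and E were lower than lines C and D in both conditions. The MEF mean was 2.87 ± 0.935 CPM and the feeder-free mean 10.3 ± 4.09 CPM (SD, n = 4 lines each). These levels rest on 72 to 198 counts per MEF library and 338 to 1167 per feeder-free library.

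KDR rose 3.58-fold, with a log2 fold change of 1.84 (SE 0.35) and an adjusted p of 0.0403 in edgeR's quasi-likelihood test. Within lines A, C, D and E the log2 ratio was 1.95, 2.11, 1.62 and 1.56, a narrow range beside the spread of the lines themselves: over the 4 lines the SD of the ratio was 0.26, and that of the line means 0.52. The paired fit gave 1.82 (SE 0.19) and an adjusted p of 0.000956. With condition alone, the call was kept when line A's feeder-free library was left out and lost without any 1 of the other 7 libraries, where the log2 fold change was between 1.57 and 1.98 and the adjusted p reached 0.116. Over all genes, 0 or 1 were called higher in those 7 settings, against 114 with every library and 259 without feeder-free line A. The loss of the call there was thus general and not particular to KDR. In the paired fit KDR stayed called without each line in turn, at adjusted p values from 0.00266 to 0.0105.

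FLT1 (VEGF receptor 1), which binds VEGFA tightly but signals weakly, moved in the same direction as KDR. FLT1 was at 5.33, 8.12, 9.89 and 7.00 CPM on MEF in lines A, C, D and E and at 13.0, 23.3, 34.5 and 17.0 CPM in feeder-free culture. Every feeder-free library was above every MEF library, and line A was lowest in both conditions. It rose by 1.53 on the log2 scale (SE 0.32, adjusted p = 0.0486 by edgeR) with condition alone, and by 1.48 (SE 0.15, adjusted p = 0.000852) in the paired fit. The call with condition alone was also lost without any 1 library other than feeder-free line A, settings in which 0 or 1 of all genes were called higher. Line by line, the log2 ratio of KDR minus that of FLT1 was 0.67, 0.59, -0.17 and 0.28 in A, C, D and E, so the rise of KDR was the larger in 3 of 4 lines.

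NRP1, a co-receptor that presents VEGFA to KDR, had 8.86 ± 2.73 CPM on MEF and 16.1 ± 4.41 CPM in feeder-free culture (SD, n = 4 each). It was called in the paired fit (log2 fold change 0.88, adjusted p = 0.0377) but not with condition alone (0.86, adjusted p = 0.108). The paired call was lost without line C, D or E (adjusted p = 0.154, 0.158 and 0.0678), and line A was at 12.4 CPM on MEF and 12.3 CPM feeder-free. The ligand VEGFA went the other way from its receptors in value: 34.7, 20.8, 24.3 and 39.3 CPM on MEF in lines A, C, D and E, and 31.6, 20.4, 13.9 and 24.3 CPM in feeder-free culture. Its log2 fold change of -0.40 (adjusted p = 0.454) and the paired -0.42 (adjusted p = 0.102) did not pass the test. Of the 10 VEGF ligands and receptors listed, 9 were tested; 2 rose (KDR and FLT1) and 0 fell with condition alone, with 3 at an unadjusted p under 0.05, all higher. The paired fit added NRP1. The median over the 9 was 0.28.

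Because KDR is widely used as a mark of endothelial and early mesodermal cells, the defining genes of those cells were read beside it. PECAM1 had 0 to 6 counts and ERG 0 to 7 counts in any library. TEK, ETV2 and LMO2 were low but higher in value in feeder-free culture in 4 of 4 lines. Their means on MEF and feeder-free were 0.443 and 1.20 CPM for TEK, 2.75 and 4.84 CPM for ETV2 and 0.319 and 0.856 CPM for LMO2. Only LMO2 was without overlap between conditions. TAL1 went the other way in 4 of 4 lines, with means of 8.25 CPM on MEF and 5.05 CPM feeder-free. TIE1 and CDH5 averaged 0.357 and 0.316 CPM on MEF and 0.298 and 0.371 CPM in feeder-free culture. The 10 endothelial markers summed to 20.2 to 27.4 CPM on MEF and 22.9 to 35.7 CPM in feeder-free culture, of which VWF made up 8.30 CPM on average. Of the 8 that were tested 0 were called in either edgeR fit, with 2 higher at an unadjusted p under 0.05 with condition alone. The log2 fold change was above 0 for 6 of the 8, and the median was 0.60. Among mesoderm markers, TBXT had 0 counts in every MEF library and 2, 0, 2 and 12 counts in feeder-free lines A, C, D and E. The 7 mesoderm markers summed to 5.10 to 9.42 CPM on MEF and 9.85 to 13.2 CPM in feeder-free culture, so their feeder-free sums lay above their MEF sums. EOMES, at 5.45 CPM on average, led them and carried most of that difference. Its means were 3.14 CPM on MEF and 7.75 CPM feeder-free, with overlap between conditions. TBX6 (1.78 and 1.71 CPM) and GSC (1.73 and 1.76 CPM) were level. With 4 tested, 0 were called with condition alone (1 at an unadjusted p under 0.05). The paired fit called 1, EOMES (1.61, adjusted p = 0.0307), and the median was 0.64. The part of such cells in the KDR levels was not tested.

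KDR stands in a cluster of receptor genes on chromosome 6 together with PDGFRA (69723776 to 69771549) and KIT (70166692 to 70254049), which arose from a shared ancestral gene. From the end of PDGFRA to the start of KIT there are 395142 bases, and from KIT to KDR 313501 bases. These were the only tested genes of the interval, and the snRNA, tRNA and lncRNA genes annotated between them that the count table holds were at 0. KIT, the receptor of stem cell factor, was at 15.1, 14.6, 19.1 and 18.5 CPM on MEF in lines A, C, D and E and at 14.0, 16.0, 18.6 and 18.7 CPM in feeder-free culture. The conditions overlapped, with lines D and E above A and C in both.

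KIT averaged 16.8 ± 2.31 CPM on MEF and 16.8 ± 2.26 CPM in feeder-free culture (SD, n = 4 each), and its log2 fold change was 0.00 (SE 0.16, adjusted p = 0.999 by edgeR). Subtracting the log2 ratio of KIT from that of KDR left 2.06, 1.98, 1.67 and 1.54 in lines A, C, D and E, so the neighbours differed in every line. The ligand gene of KIT, KITLG, was too low to test, at 0, 3, 4 and 2 counts on MEF in the same order of lines and 9, 25, 72 and 11 counts in feeder-free culture. All 4 feeder-free libraries were above the MEF libraries in CPM, at less than 1 CPM.

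PDGFRA, the receptor of PDGFA, was the lowest of the 10 genes in reads, with 18 to 84 counts per library. On MEF it was at 1.10, 0.399, 0.764 and 1.04 CPM in lines A, C, D and E, and in feeder-free culture at 0.381, 0.490, 0.821 and 0.346 CPM. Lines A and E were lower in feeder-free culture and lines C and D were not, with within-line log2 ratios of -1.45, 0.27, 0.10 and -1.50. The log2 fold change of -0.68 (SE 0.46) did not pass the test (adjusted p = 0.437 by edgeR, 0.393 paired). The SD of the within-line ratio, 0.96, was the largest of the 10 genes. PDGFRA also marks hypoblast cells: the 6 hypoblast and endoderm markers summed to 4.59 to 14.4 CPM on MEF and 3.81 to 6.74 CPM in feeder-free culture, FOXA2 was the highest, and GATA4 had at most 2 counts and GATA6 at most 36 in any library. Of the 2 that were tested, 0 were called in either fit, with 0 at an unadjusted p under 0.05 with condition alone. FOXA2 was lower in value in feeder-free culture in 4 of 4 lines, with means of 7.38 CPM on MEF and 3.87 CPM feeder-free. Its log2 fold change was -0.93 (adjusted p = 0.232 by edgeR) and the paired value -0.78 (adjusted p = 0.0631). HNF4A, the other tested gene, was at -0.54 and lower in 2 of 4 lines.

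PDGFA lies on chromosome 25 (42009812 to 42030408). It was at 26.7, 16.5, 25.1 and 17.8 CPM on MEF in lines A, C, D and E and at 28.9, 40.8, 49.3 and 52.3 CPM in feeder-free culture. The conditions did not overlap, although line A was close to its own MEF level in feeder-free culture: the within-line log2 ratio was 0.11 in line A and 1.30, 0.97 and 1.55 in C, D and E. Means were 21.5 ± 5.12 and 42.8 ± 10.5 CPM (SD, n = 4 each). With condition alone the log2 fold change of 0.99 (SE 0.23) fell short of the call at an adjusted p of 0.0554 by edgeR. The paired fit called PDGFA higher at 0.99 (SE 0.21, adjusted p = 0.0148), also without line A, D or E, but not without line C (0.90, adjusted p = 0.0680).

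PDGFB, the ligand of both PDGF receptors, was at 0.816, 1.56, 4.46 and 1.13 CPM on MEF and at 2.11, 15.7, 36.8 and 10.9 CPM in feeder-free culture in lines A, C, D and E. Line D was highest and line A lowest in both conditions, and the conditions overlapped. It was called in the paired fit (log2 fold change 2.84, adjusted p = 0.00114) and not with condition alone (3.04, adjusted p = 0.0790). The receptor PDGFRB, also a fibroblast marker, had 13.8 ± 5.11 and 19.4 ± 9.13 CPM on MEF and in feeder-free culture (SD, n = 4 each) and did not pass (0.49, adjusted p = 0.498). The 12 fibroblast markers summed to 355 to 461 CPM on MEF and to 181, 733, 1151 and 336 CPM in feeder-free lines A, C, D and E, led by COL1A1. Lines A and D thus marked the ends of the feeder-free range for PDGFB and for that sum. Most of the sum was COL1A1, at 115, 597, 1033 and 283 CPM in feeder-free lines A, C, D and E. COL3A1 and POSTN also had A lowest and D highest, but other markers did not. D was lowest for DCN (4.29 CPM), A highest for TWIST1 (17.5 CPM), and C highest for LUM (72.7 CPM) and PDGFRB (30.8 CPM). The part of these markers in the PDGF values was not tested. Of the 10 tested fibroblast markers, 0 were called with condition alone (3 at an unadjusted p under 0.05), and 2 higher (COL3A1 and POSTN) and 1 lower (COL1A2) in the paired fit. COL1A2 averaged 2.71 CPM on MEF and 0.157 CPM feeder-free (paired log2 fold change -4.35, adjusted p = 0.00166 by edgeR). TWIST2, too low to test, had 3, 26, 32 and 2 counts on MEF in lines A, C, D and E and 0 in every feeder-free library.

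CSF1R, a relative of KIT that binds the macrophage growth factor CSF1, had at most 84 counts in any library. It was called in the paired fit (2.34, adjusted p = 0.0371) and not with condition alone (2.12, adjusted p = 0.235), and the paired call was lost without line A, C or E (adjusted p = 0.0835, 0.133 and 0.0543); without line D the gene did not pass the filter on low counts. Of the 14 PDGF and KIT ligands and receptors listed, 11 were tested. With condition alone 0 rose and 0 fell by edgeR, with 3 higher and 0 lower at an unadjusted p under 0.05, and in the paired fit PDGFA, PDGFB and CSF1R rose. The median over the 11 was 0.73.

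MET is the receptor of hepatocyte growth factor (HGF) and is known for driving scattering and migration of epithelial cells. The gene lies on chromosome 4 (51620793 to 51735566). MET was at 2.93, 4.87, 8.55 and 6.75 CPM on MEF in lines A, C, D and E and at 13.0, 13.6, 34.7 and 11.9 CPM in feeder-free culture. The conditions did not overlap, and line D was highest in both, standing well above the other feeder-free libraries. Means were 5.77 ± 2.42 and 18.3 ± 11.0 CPM (SD, n = 4 each), and the within-line log2 ratios were 2.13, 1.48, 2.02 and 0.81.

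The log2 fold change of MET was 1.66 (SE 0.43) with an adjusted p of 0.0710 by edgeR with condition alone, so it was not called there. In the paired fit it rose by 1.61 (SE 0.22, adjusted p = 0.00277) and stayed called without each line in turn, at 1.47 and an adjusted p of 0.0113 without line D. HGF itself had 8.71 ± 2.19 and 10.1 ± 2.27 CPM (SD, n = 4 each) and a log2 fold change of 0.21 (adjusted p = 0.668). ST14 (matriptase), a membrane protease that can activate pro-HGF, was called in the paired fit (0.61, adjusted p = 0.0106; 0.63 and 0.156 with condition alone), a call lost without line C or D (adjusted p = 0.0592 and 0.0667). Of 8 HGF and MET system genes, 7 were tested: 0 were called with condition alone by edgeR in either direction, 2 were higher and 0 lower at an unadjusted p under 0.05, and MET and ST14 rose in the paired fit. Their median was 0.24.

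**Figure D2:**
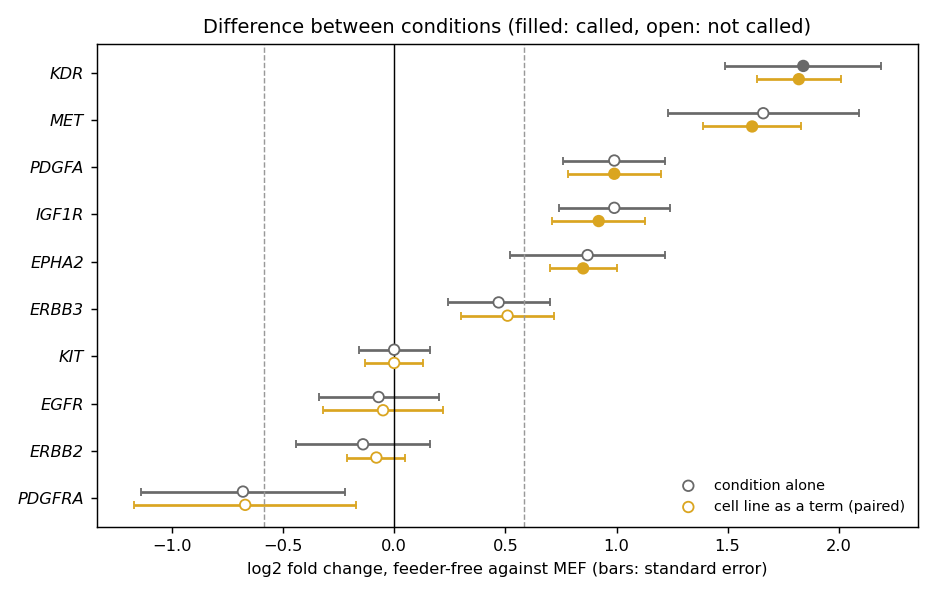
Log2 fold change of feeder-free over MEF for the 10 genes, with bars of 1 SE, in the fit on condition alone (grey) and in the paired fit (yellow); filled points were called, and dashed lines mark the 1.5-fold limits. KDR (1.84) and MET (1.66) lie furthest to the right, KIT at 0.00, and PDGFRA (-0.68) has the widest bars.

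IGF1R, the receptor of IGF1 and IGF2 and at high dose of insulin, which N-2 and B-27 supplements contain, lies on chromosome 21 (7780293 to 8087168). On MEF it was at 26.2, 24.8, 22.1 and 22.3 CPM in lines A, C, D and E, and in feeder-free culture at 29.8, 60.6, 65.5 and 34.2 CPM. The MEF libraries were close to each other, and the feeder-free libraries were all above them but spread apart, with C and D high and A and E nearer to MEF. Means were 23.8 ± 2.00 and 47.5 ± 18.1 CPM (SD, n = 4 each). The log2 fold change was 0.99 (SE 0.25, adjusted p = 0.0671 by edgeR) with condition alone and 0.92 (SE 0.21, adjusted p = 0.0195) in the paired fit, which called it. That call was lost without line C (0.80, adjusted p = 0.0933) and without line D (0.70, adjusted p = 0.0816). Genes annotated over IGF1R had at most 18 counts in any library.

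INSR, the insulin receptor and nearest relative of IGF1R, went the other way. It was at 39.7, 33.9, 45.2 and 41.4 CPM on MEF in lines A, C, D and E and at 31.2, 30.3, 24.5 and 26.6 CPM in feeder-free culture, with no overlap. Its log2 fold change was -0.51 with condition alone (adjusted p = 0.0746) and -0.51 in the paired fit (adjusted p = 0.0383), which was under the 1.5-fold limit, so it was not called. The log2 ratio of IGF1R exceeded that of INSR by 0.53, 1.45, 2.45 and 1.25 in lines A, C, D and E.

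IRS2, an adaptor that both receptors phosphorylate, was at 69.5, 59.5, 55.0 and 83.9 CPM on MEF in lines A, C, D and E and at 35.9, 35.5, 27.9 and 31.5 CPM in feeder-free culture. Every feeder-free library was below every MEF library. IRS2 fell by 1.03 on the log2 scale (SE 0.16, adjusted p = 0.0331 by edgeR) with condition alone, and by 1.02 (adjusted p = 0.00208) in the paired fit. The call with condition alone was lost without any 1 library other than feeder-free line A. In those settings 0 to 5 of all genes were called lower, against 158 with every library and 231 without feeder-free line A.

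A further adaptor, IRS4, fell in the paired fit by 1.02 (adjusted p = 0.00418) but was not called with condition alone (-0.97, adjusted p = 0.0697). IGFBP5, which binds IGFs in the matrix, was at 490, 245, 191 and 362 CPM on MEF in lines A, C, D and E and at 119, 33.5, 16.9 and 71.8 CPM in feeder-free culture. The conditions did not overlap, and lines A and E were above C and D in both. It fell by 2.68 in the paired fit (adjusted p = 0.000298) and stood at -2.42 with condition alone (adjusted p = 0.0567). IGFBP2, at 2512 ± 824 CPM on MEF and 1549 ± 429 CPM in feeder-free culture (SD, n = 4 each), fell by 0.69 in the paired fit (adjusted p = 0.00585), but not with condition alone (-0.70, adjusted p = 0.164). IGF2, a ligand of IGF1R, was low and did not pass (3.37 ± 1.54 and 2.00 ± 1.12 CPM, -0.75, adjusted p = 0.391).

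Of the 17 IGF and insulin genes listed, 14 were tested. With condition alone 0 rose by edgeR and 1 fell (IRS2), with 1 higher and 5 lower at an unadjusted p under 0.05. In the paired fit 2 rose (IGF1R and IGFBP3) and 4 fell (IRS2, IRS4, IGFBP2 and IGFBP5), and the median over the 14 was -0.48.

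**Figure D3:**
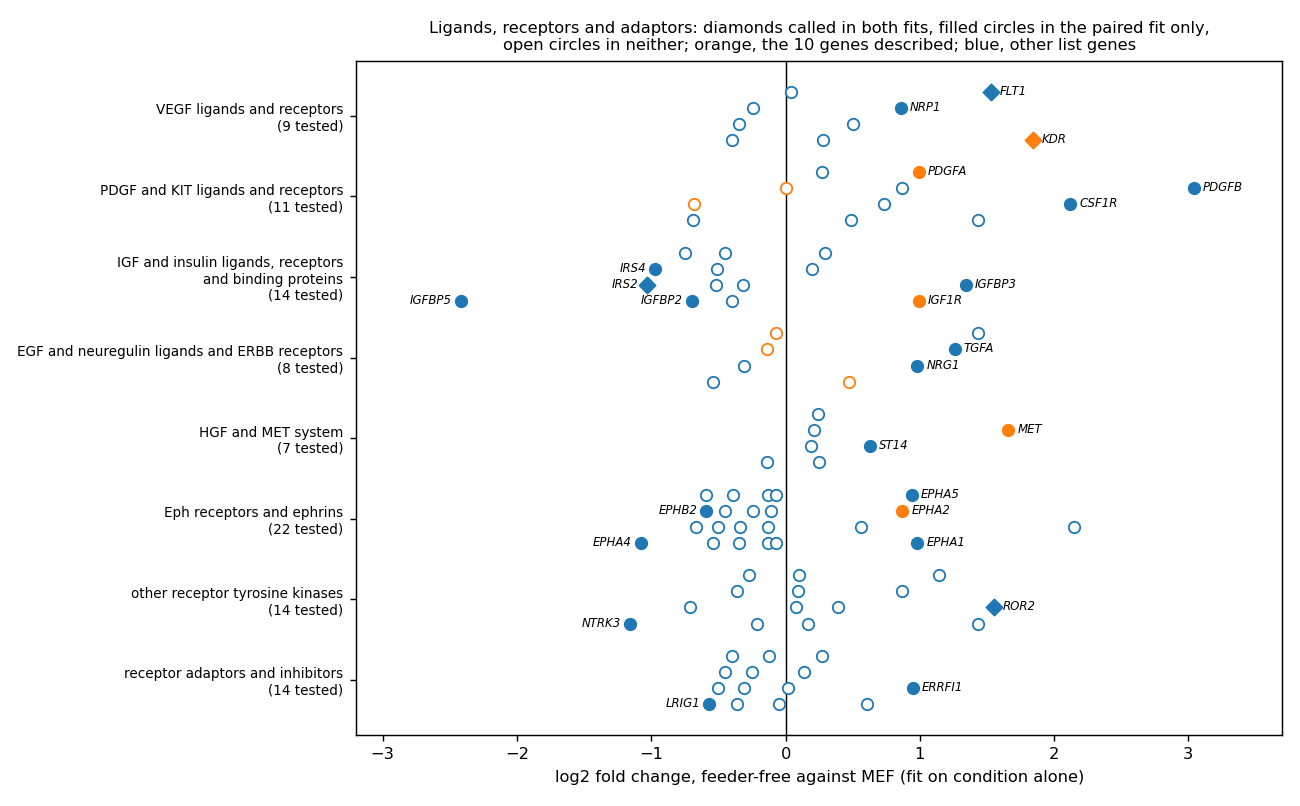
Log2 fold change of feeder-free over MEF, from the fit on condition alone, for each tested gene of the ligand, receptor and adaptor lists. FLT1, KDR and ROR2 to the right and IRS2 to the left were called in both fits, and the IGF list holds both IGF1R at 0.99 and IGFBP5 at -2.42.

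The ERBB family receives EGF-like ligands and neuregulins. EGFR and ERBB3 bind ligand themselves, whereas ERBB2 has no known ligand and acts as their partner. ERBB2, on chromosome 19 (40072599 to 40096977), was at 82.6, 112, 155 and 56.6 CPM on MEF in lines A, C, D and E and at 74.8, 102, 120 and 72.5 CPM in feeder-free culture. The lines kept the order D, C, A, E in both conditions, and the conditions overlapped. Its log2 fold change was -0.14 (SE 0.30, adjusted p = 0.836 by edgeR), and the SD of the line means, 0.48, was above that of the within-line ratio, 0.31.

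EGFR, on chromosome 22 (904065 to 1121545), was at 3.79, 3.54, 2.89 and 5.46 CPM on MEF in lines A, C, D and E and at 4.82, 3.11, 3.91 and 3.12 CPM in feeder-free culture. Lines A and D were higher feeder-free and lines C and E lower, and the log2 fold change of -0.07 (SE 0.27, adjusted p = 0.923) had no stable sign. The log2 ratio of MET was above that of EGFR by 1.79, 1.66, 1.59 and 1.61 in lines A, C, D and E. The ratio of each gene alone varied more over the lines (SD 0.60 for MET and 0.57 for EGFR). Whether the narrow range of the difference is a coincidence of 4 lines was not tested. ERBB3, on chromosome 5 (57215783 to 57236737), was at 4.59, 4.81, 8.51 and 5.62 CPM on MEF and at 7.87, 8.02, 7.58 and 9.01 CPM in feeder-free culture in lines A, C, D and E. Lines A, C and E were higher feeder-free and line D was not, and neither the log2 fold change of 0.47 (SE 0.23, adjusted p = 0.283) nor the paired 0.51 (SE 0.21, adjusted p = 0.130) passed.

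The neuregulin receptor ERBB4 was too low to test, at 6, 8, 6 and 0 counts on MEF and 20, 11, 17 and 14 counts in feeder-free culture in lines A, C, D and E. HBEGF, an EGFR ligand, was at 2.00 to 2.51 CPM in all MEF libraries and at 2.11, 4.05, 13.4 and 3.79 CPM in feeder-free lines A, C, D and E; its log2 fold change of 1.43 (adjusted p = 0.150) was 0.62 without the feeder-free library of line D. TGFA, which binds EGFR, and NRG1, which binds ERBB3, were called in the paired fit (1.21, adjusted p = 0.0482, and 0.99, adjusted p = 0.0429) and not with condition alone (adjusted p = 0.180 and 0.112). Both paired calls were lost whichever line was left out, with adjusted p values from 0.0725 to 0.269 for TGFA and from 0.0723 to 0.161 for NRG1. Of 15 EGF and neuregulin ligands and ERBB receptors listed, 8 were tested, 0 were called with condition alone by edgeR, 3 were higher and 0 lower at an unadjusted p under 0.05, and TGFA and NRG1 rose in the paired fit. The median was 0.20.

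EPHA2, on chromosome 2 (135945217 to 135972064), belongs to the Eph receptors, which bind ephrins held on neighbouring cells and act at cell contacts. EPHA2 was at 106, 134, 191 and 72.1 CPM on MEF in lines A, C, D and E and at 135, 226, 370 and 185 CPM in feeder-free culture. Each line was higher feeder-free than on MEF, but the conditions overlapped, since line D on MEF was above lines A and E in feeder-free culture. The SD of the line means was 0.56 and that of the within-line log2 ratio 0.42. With condition alone the log2 fold change was 0.87 (SE 0.35, adjusted p = 0.195 by edgeR). The paired fit called it at 0.85 (SE 0.15, adjusted p = 0.00779), and kept that call without each line in turn, with 0.70 to 1.02 on the log2 scale.

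EFNA1, a ligand of EPHA2, was lower in 4 of 4 lines in value (13.9 ± 4.14 CPM on MEF and 11.0 ± 3.59 CPM feeder-free, SD, n = 4 each) and did not pass (-0.34, adjusted p = 0.537). All 22 Eph receptors and ephrins were tested. With condition alone 0 were called by edgeR, with 3 higher and 4 lower at an unadjusted p under 0.05. In the paired fit EPHA1 (1.01, adjusted p = 0.00681), EPHA5 (1.02, adjusted p = 0.0128) and EPHA2 rose, and EPHA4 (-1.22, adjusted p = 0.0161) and EPHB2 (-0.60, adjusted p = 0.0320) fell. The call of EPHA4 was lost without line D (adjusted p = 0.0638), and that of EPHB2 without line A, C or D (adjusted p = 0.0856, 0.116 and 0.165). The median over the 22 was -0.19. The log2 fold change was above 0 for 5 of them and below 0 for 17, every ephrin among the latter, whereas 50.6 percent of all genes tested were above 0. Most of the list was thus lower in value, while the receptors called in the paired fit went both ways.

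Among receptor tyrosine kinases of other families, 18 of the 19 listed were in the table and 14 were tested. ROR2, a WNT5A receptor, was at 6.96, 10.7, 9.54 and 4.67 CPM on MEF in lines A, C, D and E and at 16.4, 27.6, 32.1 and 17.5 CPM in feeder-free culture. The conditions did not overlap, and ROR2 rose by 1.55 (SE 0.31, adjusted p = 0.0451 by edgeR) with condition alone and by 1.56 (adjusted p = 0.000834) in the paired fit. The call with condition alone was again lost without any 1 library other than feeder-free line A, settings in which 0 or 1 of all genes were called higher. NTRK3, a neurotrophin receptor, fell in the paired fit (-1.38, adjusted p = 0.0152) and not with condition alone (adjusted p = 0.194), and its paired call was lost without line C or E (adjusted p = 0.0636 and 0.0508). With condition alone ROR2 was 1 called higher with 0 lower, 4 were higher and 2 lower at an unadjusted p under 0.05, and the median was 0.10.

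Adaptors and inhibitors that act below many of these receptors were all tested, 14 in number. By edgeR with condition alone 0 were called, with 1 higher and 6 lower at an unadjusted p under 0.05. In the paired fit ERRFI1, an inhibitor of EGFR, rose (0.82, adjusted p = 0.0428), and LRIG1, which promotes loss of ERBB receptors, fell (-0.60, adjusted p = 0.00933). The call of ERRFI1 was lost without line C, D or E (adjusted p = 0.0922, 0.193 and 0.122). That of LRIG1 was lost without line D (-0.55, adjusted p = 0.0638) and, as its fold was then under the limit, without line E (-0.53, adjusted p = 0.0267). Their median was -0.18. The 8 lists of ligands, receptors and adaptors held 9, 11, 7, 14, 8, 22, 14 and 14 tested genes in the order described, the 10 genes included. With the 10 set aside, 2 genes were called higher and 1 lower with condition alone, beside 0.724 and 1.00 percent of all genes. The paired fit called 12 and 8, beside 5.52 and 4.53 percent of all genes, and DESeq2 8 and 4, beside 4.41 and 3.28 percent.

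Likeness to KDR was measured as the root mean square difference of log2 CPM, each gene centred on its own mean, over the 8 libraries and 13254 tested genes with a mean of at least 1 CPM. The nearest were NCALD (0.30), a calcium sensor, PDE4D (0.32), a cAMP phosphodiesterase, FLT1 (0.33), SEMA3C (0.34), a secreted semaphorin, and SPAG1 (0.34). The measure takes in the difference between conditions, so a rise in these 5 genes follows from how they were picked and is no separate result. Their log2 fold changes were 1.63, 1.60, 1.53, 1.78 and 1.28, and FLT1 alone of them was called with condition alone. The receptor FLT1 thus stood among the 5 genes nearest to KDR. Of the other genes described, MET (0.54), IGF1R (0.59), EPHA2 (0.64) and PDGFA (0.70) were nearer to KDR than ERBB3 (0.80), KIT (1.01), ERBB2 (1.01) and EGFR (1.14), and PDGFRA was under the level limit. That order largely restates their fold changes.

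**Figure D4:**
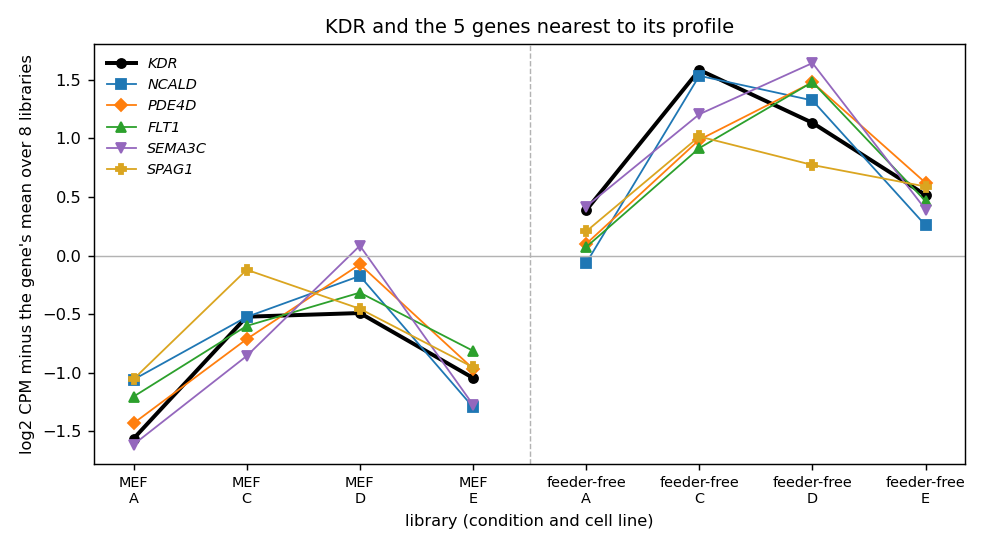
Log2 CPM of KDR and of the 5 genes nearest to it, each minus its own mean over the 8 libraries, in the 4 MEF and 4 feeder-free libraries. All 6 profiles lie lower on MEF than in feeder-free culture, which for the 5 genes follows from choosing them by likeness to KDR. The differences from KDR are 0.30 to 0.34 (root mean square, log2).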

How the data were processed

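RNA of 4 bESC lines was sequenced at 5% O2 on MEF and feeder-free. The authors deposited raw counts per gene: per the methods and the submitters' processing notes, reads were trimmed (Trimmomatic), aligned to ARS-UCD2.0 (STAR), freed of optical duplicates and low-quality alignments, and counted with featureCounts (Subread 1.6.2). Whether counting used strand is not given in the sources used here. Of 32640 genes listed, 3 had no values; 30268 symbols matched RefSeq (ARS-UCD2.0), which gave coordinates. All columns were used.

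Counts were fitted with edgeR 4.0.16 in R 4.3.3 (filterByExpr, TMM, glmQLFit, glmQLFTest, Benjamini-Hochberg over 15744 genes); SEs came from the fold change and F, and log2 CPM used a prior count of 2. Paired fits added line as a term. Libraries of a line deviated together from their condition means (correlations 0.421 to 0.664, against -0.523 to 0.249 between lines), and no pair within a condition was a duplicate (smallest of 12 chi-square values per degree of freedom 40.8). Fits were tested on simulated data.

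The 10 genes, the lists and the tests were chosen with earlier results of these data known. Named were the 10 genes, main ligands and partner receptors, list genes called with condition alone, up to 4 per list and direction called in the paired fit, the highest marker of each list and the 5 genes nearest to KDR. PECAM1, ERG, TEK, ETV2, LMO2, TAL1, TIE1, CDH5, SALL4, DPPA4, ZFP42, TBXT, TBX6, GSC, GATA4, GATA6, HNF4A, DCN, LUM, TWIST1, TWIST2, COL3A1, POSTN and COL1A2 were added after their values were seen. Of the trophoblast markers (22.1 to 38.2 CPM summed on MEF, 41.6 to 114 feeder-free, KRT7 highest), 4 were tested and 0 called with condition alone by edgeR (2 at an unadjusted p under 0.05), with 1 higher and 1 lower in the paired fit. Of 7 tested pluripotency markers, 0 were called with condition alone (1 higher and 4 lower at an unadjusted p under 0.05), and 1 higher and 0 lower in the paired fit; SALL4, at 456 CPM on MEF and 305 feeder-free, had an adjusted p of 0.0426 (0.00614 paired) and a fold of 0.669, which is within the 1.5-fold limit. The alternatives tried were no scaling, RLE size factors, other filters and fold limits, the likelihood ratio test, DESeq2 1.42.0, limma-voom (limma 3.58.1), pairing, and each library or line left out. Counts carry no molecular identifiers. With condition alone, p-values set the difference against the spread between libraries, each a separate line. In the paired fit they set it against the spread of the within-line differences.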

Additional observations from a re-analysis of the deposited data

Results flagged for a closer look

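In 78 groups of 4 libraries (39 genes, both conditions), 3 held a library far from the other 3 by Dixon's test at the 95% level, where chance gives 3.90. MET in feeder-free line D was at 5.12 log2 CPM, against 3.58 to 3.77 in the other feeder-free lines. ERBB4 in MEF line E, with 0 counts, was at -4.80 log2 CPM, against -2.65 to -2.47. IGFBP2 in MEF line A was at 11.87 log2 CPM, against 11.00 to 11.10.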

How the results depend on the processing

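Of the 10 genes, KDR was called higher with condition alone, 2 were with at least 10 counts in every library, 4 by the likelihood ratio test, 4 by DESeq2, 5 in the paired fit (replicate block) and 5 with RLE size factors too; the block without line A, C, D or E called 5, 3, 4 and 5, and leaving out 1 library 0 to 3. The number called lower was 0 in every setting. The log2 fold change of KDR was 1.57 to 2.00 with 1 library left out. Over all genes, 114 were called higher and 158 lower: 73 and 97 without a filter, 199 higher with the stricter one, 91 lower without scaling, 448 and 389 by the likelihood ratio test, 695 and 517 by DESeq2, 70 and 48 at 2-fold. The block called 869 and 713, with RLE 910 and 676, and without line A, C, D or E 918, 561, 376 and 662 higher and 733, 496, 366 and 497 lower. With 1 library left out the counts were 0 to 259 and 0 to 231. Of the list genes besides the 10, 2 were called higher and 1 lower: 0 higher without scaling, 0 and 2 by limma-voom, 8 and 4 by DESeq2, 3 lower by the likelihood ratio test, 2 lower with the stricter filter, 12 and 8 in the block (the same numbers with RLE), and without line A, C, D or E 11, 6, 6 and 7 higher and 7, 7, 6 and 6 lower; with 1 library left out 0 to 3 and 0 to 2.

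The sign of EGFR turned in the block without line C (0.01) or E (0.21) and ranged from -0.21 to 0.13 with 1 library left out; that of ERBB2 turned in the block without line D (0.02), with a range of -0.34 to 0.14. IGFBP3 ranged from -0.03 to 2.29 with 1 library left out. The cause was not tested, apart from fewer samples in fits that leave libraries out. PDGFRA rests on 18 to 84 counts per library.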

Other observations

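IGFBP3, an IGF carrier, was chosen for mention after its values were seen, because it was present in some lines and nearly absent in others. Its counts in lines A, C, D and E were 4003, 0, 0 and 6662 on MEF and 9024, 46, 0 and 23051 in feeder-free culture. Lines A and E thus held nearly all of its reads in both conditions. Its paired call (log2 fold change 1.51, adjusted p = 0.0304 by edgeR) was not kept without line E (1.42, adjusted p = 0.127), and with condition alone it was at 1.34 (adjusted p = 0.790).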
